A study of Mus musculus with 11 samples.

Results

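The genes described here are 32 mouse genes of ribosome biogenesis and RNA polymerase I transcription, out of 21887 protein-coding genes in the RefSeq table of GRCm38.p6, the assembly that mm10 names. They were taken by symbol, and all 32 were matched. For each gene the peaks of the 5 factor libraries within 5 kb and within 50 kb of the gene span were collected, together with the histone segments that covered either end of the span.

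ChIP-seq, the sequencing of DNA precipitated with a chromatin protein, was done on the mouse T-cell leukaemia line 8946. Cells had been transduced with retroviruses carrying an epitope-tagged Zmiz1 with an NGFR marker and an activated Notch1 with a GFP marker, and doubly marked cells were sorted. The line Flag-Zmiz1/L1601PDP, called the Flag line here, gave the Flag-Zmiz1, ICN1, Rbpj, H3K4me1, H3K4me3, H3K27me3 and H3K27ac libraries and an input. HA-Zmiz1/DEGFDLNRDP, called the HA line, gave HA-Zmiz1, ICN1 and an input. Both lines therefore carry added Zmiz1 and added Notch1, no line without them was profiled in the data used here, and the Flag and HA libraries read the transduced Zmiz1. Each target had 1 library per line and no replicate, so no difference below was set against a spread between replicates and no test was made.

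Cells make ribosomes in the nucleolus. RNA polymerase I transcribes the ribosomal RNA precursor from tandem gene repeats, small nucleolar ribonucleoproteins of the box C/D and box H/ACA types guide its methylation and pseudouridylation, and large assemblies of processing factors cut it into the RNAs of the small and large subunits. The genes for these proteins are active in growing cells and are known targets of Myc, which binds the E-box letters CACGTG. Rbpj is the DNA-binding protein of the Notch pathway, ICN1 is the activated part of Notch1 that binds to it, and Zmiz1 is a PIAS-like coactivator.

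The factor libraries held 13.5 to 19.0 M filtered tags, with inputs of 26.8 M in the HA line and 36.4 M in the Flag line (M, mega). The lists held 20993 Rbpj, 4984 HA-Zmiz1, 414 HA-line ICN1, 581 Flag-Zmiz1 and 82 Flag-line ICN1 peaks. An H3K4me3 segment, the mark of active promoters, lay over an end of 10 of 10 T-cell marker genes, 1 of 6 B-cell markers (Ebf1) and 1 of 6 myeloid markers (Itgam). The library labelled H3K27me3 covered an end of 9 of 10 active genes and 0 of 10 developmental regulators, while for the one labelled H3K27ac the counts were 0 of 10 active genes and 10 of 10 developmental regulators. Both libraries went against their labels, and both are named by label below.

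The 6 promoter windows printed here show the sites the results turn on, from RefSeq sequence on GRCm38.p6, each running from 250 bases before the listed start to 50 bases after it, on the strand of the gene. Nolc1 and Polr1b are shown because an Rbpj summit and an HA-Zmiz1 summit both fell inside the window. Tsr1, Nop56, Rrn3 and Heatr1 are shown because they had the strongest Rbpj peaks by −log10 p, among the windows that hold an Rbpj summit, after those. Capitals mark the Rbpj core letters TGGGAA, on either strand, and the E-box letters CACGTG. A window without capitals holds neither run of letters, which says nothing about binding of a factor.
Nolc1, chr19:46075597-46075896, plus strand: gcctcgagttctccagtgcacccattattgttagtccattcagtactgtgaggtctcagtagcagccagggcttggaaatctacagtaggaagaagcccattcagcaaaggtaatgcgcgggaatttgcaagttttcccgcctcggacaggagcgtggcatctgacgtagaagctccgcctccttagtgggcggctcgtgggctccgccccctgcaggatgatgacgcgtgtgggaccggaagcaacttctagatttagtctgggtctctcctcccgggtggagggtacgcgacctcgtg
Polr1b, chr2:129100746-129101045, plus strand: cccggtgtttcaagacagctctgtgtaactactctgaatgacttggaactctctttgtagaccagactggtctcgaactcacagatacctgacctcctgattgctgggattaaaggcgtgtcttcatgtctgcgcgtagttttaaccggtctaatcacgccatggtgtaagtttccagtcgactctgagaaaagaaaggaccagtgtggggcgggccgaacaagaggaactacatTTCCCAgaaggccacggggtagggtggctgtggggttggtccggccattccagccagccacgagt
Tsr1, chr11:74897830-74898129, plus strand: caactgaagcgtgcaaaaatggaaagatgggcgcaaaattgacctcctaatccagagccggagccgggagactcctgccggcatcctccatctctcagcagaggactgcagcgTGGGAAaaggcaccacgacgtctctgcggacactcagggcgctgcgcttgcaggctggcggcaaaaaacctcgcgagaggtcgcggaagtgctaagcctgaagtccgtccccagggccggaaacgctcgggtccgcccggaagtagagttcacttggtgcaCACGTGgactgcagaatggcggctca
Nop56, chr2:130274162-130274461, plus strand: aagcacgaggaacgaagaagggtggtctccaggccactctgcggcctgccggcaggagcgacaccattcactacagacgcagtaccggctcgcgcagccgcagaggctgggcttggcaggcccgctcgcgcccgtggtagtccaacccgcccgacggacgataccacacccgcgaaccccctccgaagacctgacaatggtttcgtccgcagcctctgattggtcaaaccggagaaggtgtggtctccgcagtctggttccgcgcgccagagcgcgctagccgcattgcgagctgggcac
Rrn3, chr16:13780449-13780748, plus strand: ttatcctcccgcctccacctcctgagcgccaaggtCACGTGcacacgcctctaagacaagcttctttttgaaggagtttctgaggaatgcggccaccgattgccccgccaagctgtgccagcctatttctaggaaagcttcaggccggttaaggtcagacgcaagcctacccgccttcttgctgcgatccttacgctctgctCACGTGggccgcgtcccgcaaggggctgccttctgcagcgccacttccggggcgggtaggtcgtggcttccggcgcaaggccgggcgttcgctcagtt
Heatr1, chr13:12395125-12395424, plus strand: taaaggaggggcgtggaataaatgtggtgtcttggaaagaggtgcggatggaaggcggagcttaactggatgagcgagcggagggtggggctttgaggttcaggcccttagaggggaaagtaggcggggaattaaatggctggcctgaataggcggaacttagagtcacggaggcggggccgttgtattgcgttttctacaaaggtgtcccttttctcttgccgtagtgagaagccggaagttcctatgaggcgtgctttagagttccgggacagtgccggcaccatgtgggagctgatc

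In the Tsr1 window the TGGGAA match began 137 bases before the start, and its centre lay 20 bp from the Rbpj summit. The Polr1b window holds the reverse form TTCCCA, which began 15 bases before the start and lay 81 bp from the Rbpj summit. In the Rrn3 window the 2 CACGTG matches began 215 and 48 bases before the start.

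Rbpj was the factor found at most of these genes. An Rbpj peak lay within 5 kb of 28 of the 32 genes (87.5%), against 84.5% of the 10192 coding genes that had H3K4me3 over an end and 48.7% of all coding genes. Within 50 kb it lay near 31 of 32 (96.9%), against 95.1% and 67.2%. The share among the 32 genes was thus close to that of genes with H3K4me3 in general. There were 58 Rbpj peaks within 5 kb, and 11 genes had 1, 7 had 2, 8 had 3, 1 (Ubtf) had 4 and 1 (Npm1) had 5. Of these summits 54 lay in H3K4me3 segments (93.1%), against 89.7% of the 17050 Rbpj summits within 5 kb of any coding gene. None of the 58 was a high-input peak, that is, one whose local input was 10 or more times the library mean; their highest value was 7.34.

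The strongest Rbpj peaks of these genes had a lower median fold than those of genes with H3K4me3, and the quartile ranges overlapped. Fold enrichment is the authors' value for each peak over its local input. The strongest peak per gene, by −log10 p, had a median fold of 6.79 over the 28 genes (range 4.67 to 11.1, quartiles 5.97 and 8.34), against 7.82 over 8616 genes with H3K4me3 (quartiles 6.26 and 9.83) and 7.76 over 10649 coding genes with such a peak. The highest value among genes with H3K4me3 was 59.0, and none of the 28 genes passed 11.1.

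**Figure D1:**
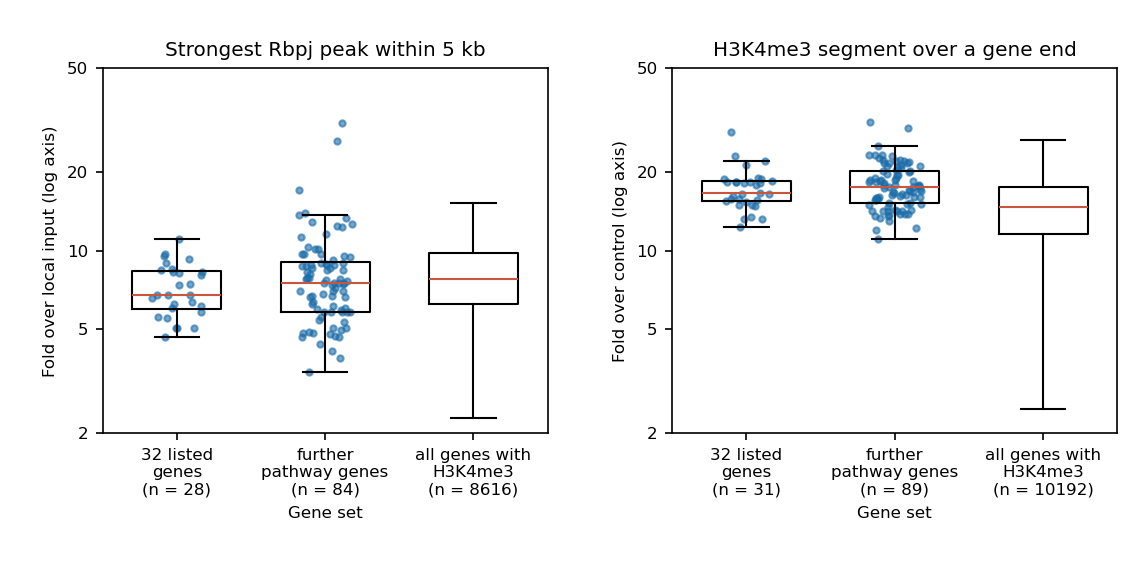
Fold of the strongest Rbpj peak within 5 kb (left) and of the H3K4me3 segment over a gene end (right), on log axes, for the 32 listed genes, 91 further pathway genes and all coding genes with H3K4me3 over an end that had a value. Boxes give median and quartiles, whiskers reach 1.5 times the quartile range, points are single genes; the Rbpj median is 6.79 for the listed genes and 7.82 for the genes with H3K4me3, and the H3K4me3 median is 16.7 and 14.7.

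Most of the peaks lay close to the transcription start. The promoter table gives a start for 28 of the 32 genes, the exceptions being Npm1, Fbl, Bop1 and Rrp12. An Rbpj summit lay within 1 kb of a start in 23 of these 28 (82.1%), against 72.9% of genes with a listed start and H3K4me3 and 37.6% of all coding genes with a listed start. Among these 23 genes, which were picked for a summit within 1 kb, the nearest summit was at a median of 87 bp from the start. It lay within 100 bp in 13 genes and within 250 bp in 20, and upstream in 14 genes and downstream in 9. The shares of all coding genes at these shorter distances were not counted. At Gnl3 the summit was 1 bp and at Polr1c 4 bp upstream of the start. The 5 genes without a summit within 1 kb were Nhp2, Utp20, Ltv1, Nat10 and Nop2.

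**Figure D2:**
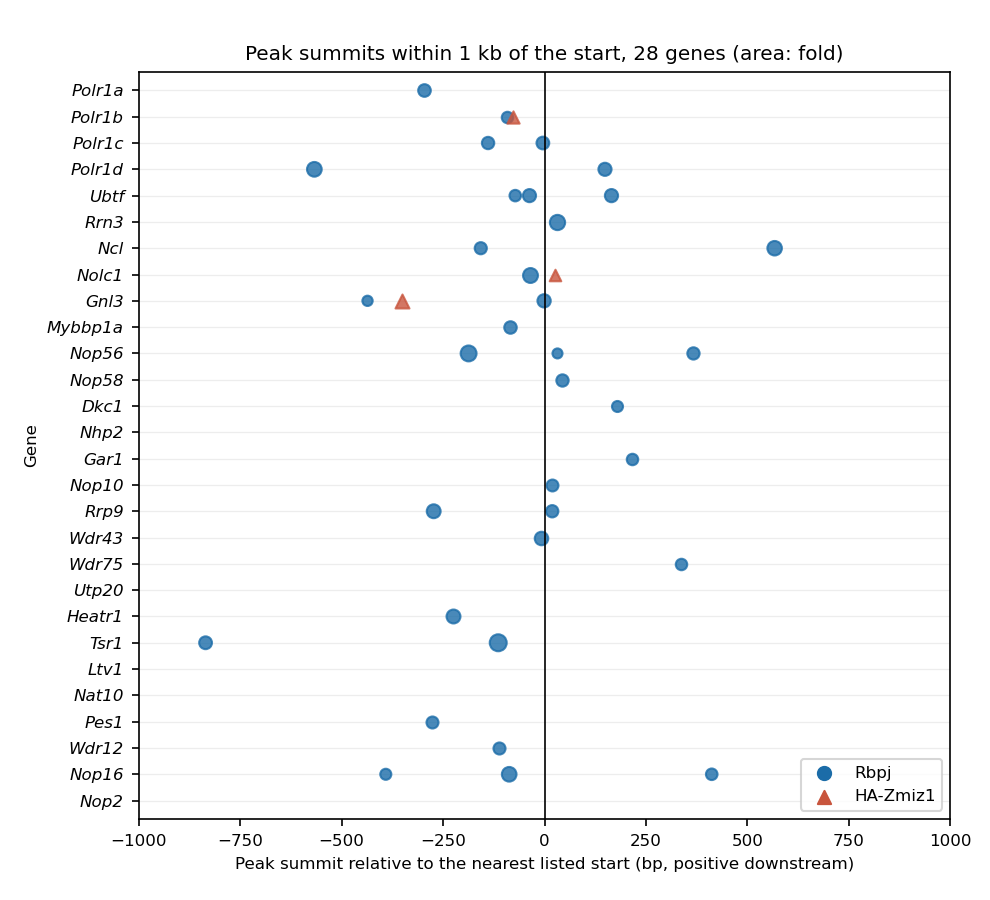
Position of Rbpj (circles) and HA-Zmiz1 (triangles) peak summits within 1 kb of the nearest listed start, in bp and positive downstream, for the 28 genes with a listed start; marker area is proportional to fold. Rbpj summits of 13 genes lie within 100 bp of the start, and HA-Zmiz1 summits appear at Polr1b, Nolc1 and Gnl3.

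The genes with the strongest Rbpj peaks, in −log10 p, were Tsr1, Nop56, Rrn3, Nop10 and Fbl. Tsr1, a GTPase-like factor of late small-subunit assembly, had the strongest one (chr11:74897896-74898127), with 39 tags at its summit, a fold of 11.1 and rank 632 of 20993; its summit lay 114 bp upstream of the start. The exact Poisson 95% interval of the 39 tags is 27.7 to 53.3, and such intervals cover counting error only. Nop56, a core protein of box C/D particles, had 29 tags (19.4 to 41.6) and a fold of 9.70 at a summit 187 bp upstream of its start (chr2:130274169-130274352). The intervals of Tsr1 and Nop56 overlap.

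Rrn3, which links RNA polymerase I to its promoter factors, had 22 tags (13.8 to 33.3) and a fold of 8.95 at a summit 32 bp downstream of its start (chr16:13780620-13780787). Fbl, the methyltransferase of box C/D particles, had 15 tags and a fold of 9.31 inside its span (chr7:28169552-28169761). Nop10, a small box H/ACA protein, had its strongest peak within 5 kb (fold 9.58) away from its start, and the peak at the start itself had a fold of 5.45.

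No Rbpj peak lay within 5 kb of 4 genes: Rrp12, Utp20, Ltv1 and Nop2. The nearest Rbpj peak lay 5.67 kb from Rrp12, just outside the window, 15.0 kb from Utp20 and 17.4 kb from Nop2, and Ltv1 had none within 50 kb. At the other side of the limit, the only peak of Nhp2, a box H/ACA protein, lay 3911 bp from the span. Rrp12 and Ltv1 are small-subunit factors known chiefly from yeast, Utp20 belongs to the small-subunit processome, and Nop2 methylates ribosomal RNA of the large subunit. All 4 carried H3K4me3 over an end, with folds of 18.4, 16.5, 12.3 and 21.3 in the order given, so H3K4me3 without a listed Rbpj peak occurred in this gene set.

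By role, Rbpj lay within 5 kb of 6 of 6 RNA polymerase I genes, 5 of 5 nucleolar scaffold and regulatory genes, 3 of 3 box C/D genes, 4 of 4 box H/ACA genes, 6 of 9 small-subunit genes and 4 of 5 large-subunit genes. The strongest-peak folds ran from 6.14 to 8.95 in the RNA polymerase I genes. They ran from 6.01 to 8.52 in the scaffold genes, 5.83 to 9.70 in box C/D, 4.67 to 9.58 in box H/ACA, 5.06 to 11.1 in small-subunit and 5.54 to 8.24 in large-subunit genes. The ranges of the role groups overlap.

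**Figure D3:**
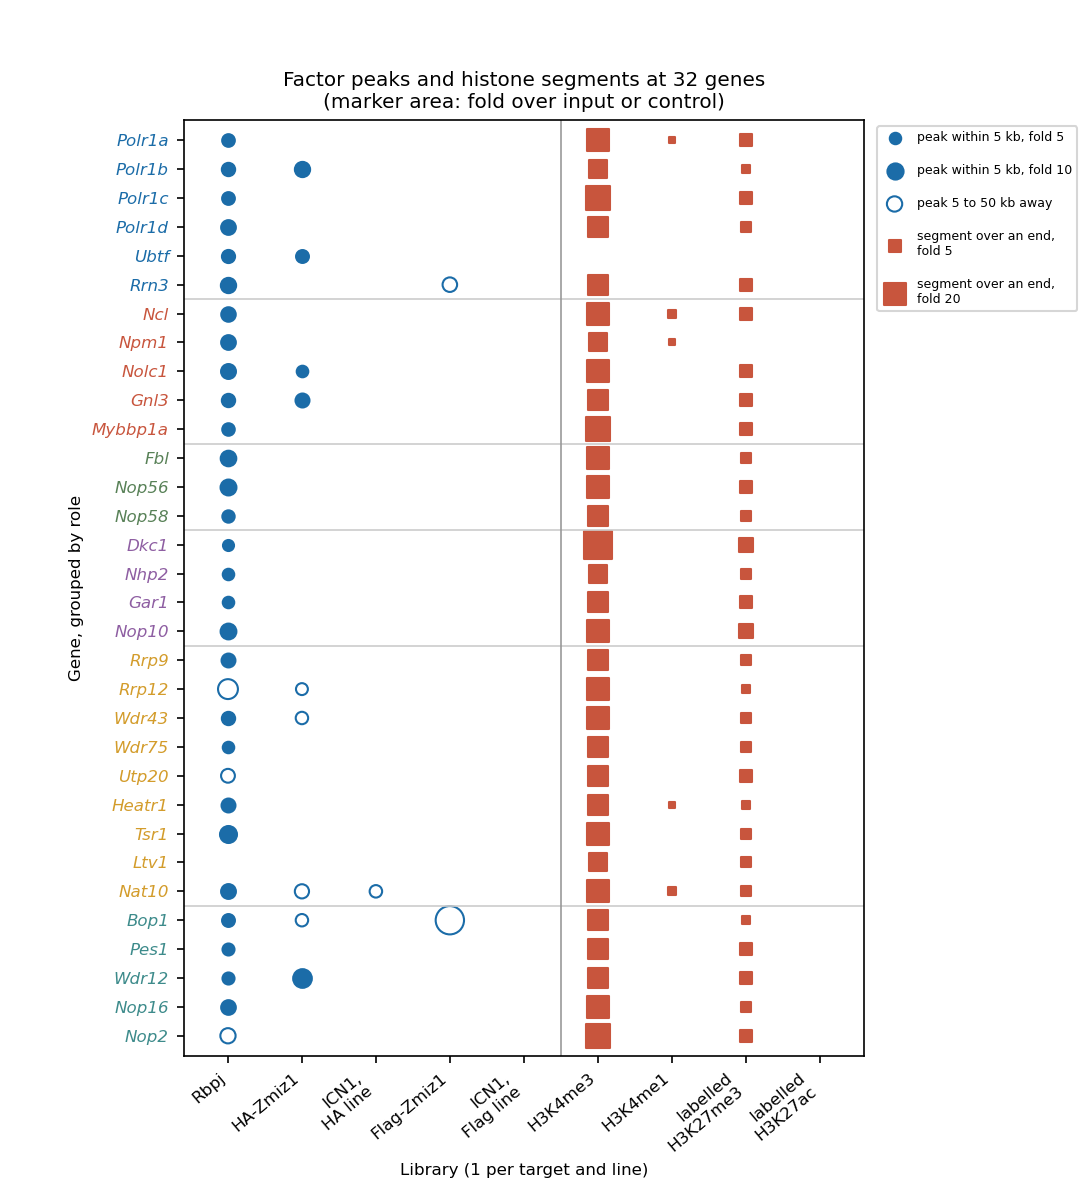
Each row is 1 of the 32 genes, grouped by role from top to bottom (RNA polymerase I, nucleolar scaffold and regulation, box C/D, box H/ACA, small subunit, large subunit), and each column 1 library. Filled circles are the strongest peak within 5 kb and squares a segment over a gene end. Open circles are the strongest peak 5 to 50 kb away, drawn only where that library had no peak within 5 kb of the gene. Marker area is proportional to fold. Rbpj, H3K4me3 and the library labelled H3K27me3 fill most rows, HA-Zmiz1 has filled circles at 5 genes, and both ICN1 columns have none.

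Within the RNA polymerase I group, Polr1a, the largest catalytic subunit, had 1 Rbpj peak (fold 6.14), 296 bp upstream of its start. Polr1c and Polr1d, which RNA polymerase I shares with RNA polymerase III, had 2 peaks each within 5 kb, with strongest folds of 6.23 and 8.31. Ubtf, which binds the ribosomal RNA genes and keeps them open for transcription, had 4 peaks, and the one nearest a start, 37 bp upstream of it, had a fold of 6.62. In the scaffold group, Ncl, the gene of nucleolin, had 2 peaks (strongest fold 8.07), Npm1, the gene of nucleophosmin, 5 (8.29), and Mybbp1a, a Myb-binding nucleolar protein, 1 (6.01). Of the Npm1 peaks, those 3904 and 4459 bp outside the span lay nearer to Fgf18.

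Among box H/ACA genes, Dkc1, the pseudouridine synthase, had 1 peak 179 bp downstream of its start with a fold of 4.67, the lowest strongest-peak fold of the 28 genes. Gar1, another protein of that particle, had 1 peak (fold 5.06). Nop58, a core box C/D protein, had 1 peak with a fold of 5.83, at 44 bp downstream of its start. Of the large-subunit genes, Pes1 and Bop1, which with Wdr12 form the PeBoW complex, had strongest folds of 5.54 and 6.36, and the Bop1 peak also touched Hsf1. Nop16, a large-subunit factor, had 3 Rbpj peaks (strongest fold 8.24).

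Most of the other small-subunit genes had a peak near the start. Heatr1, a processome protein, had 1 peak with a fold of 7.44 at 225 bp upstream. Wdr43 and Wdr75, WD-repeat proteins of the processome, had folds of 7.00 and 5.06 at 8 bp upstream and 336 bp downstream. Wdr43 had another peak 3765 bp beyond the far end of its span (fold 6.79). By −log10 p that one was the stronger (13.8 against 12.9). Rrp9, a small nucleolar RNA-binding protein, had 3 peaks (strongest fold 7.39), of which the strongest lay nearer to Parp3. Nat10, which acetylates ribosomal RNA, had no peak at its listed start, and its single peak within 5 kb (fold 8.43) lay 2111 bp beyond the other end of its span, nearest to Abtb2.

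HA-Zmiz1 was found at few of these genes. A peak lay within 5 kb of 5 of 32 (15.6%), namely Polr1b, Ubtf, Nolc1, Gnl3 and Wdr12, against 20.8% of genes with H3K4me3 and 12.1% of all coding genes. Within 50 kb it lay near 9 of 32 (28.1%), against 41.8% and 27.8%, the other 4 genes being Rrp12, Wdr43, Nat10 and Bop1. These shares did not stand above those of genes with H3K4me3. All 5 genes with a peak within 5 kb had one that overlapped an Rbpj peak there (15.6%), against 17.6% of genes with H3K4me3 and 9.95% of all coding genes. Each such overlap joins 2 lines, as the HA line has no Rbpj library here. Of the HA-Zmiz1 peaks themselves, 7 of 7 within 5 kb of these genes overlapped Rbpj, against 2460 of 3314 (74.2%) within 5 kb of any coding gene. By gene, 2122 genes with H3K4me3 had an HA-Zmiz1 peak within 5 kb, and 1789 had one that overlapped Rbpj. Such overlap was thus common among genes with H3K4me3, and the 7 peaks are few. Within 50 kb of the listed genes 14 of 15 peaks overlapped Rbpj, and the share for any coding gene was not counted at that distance.

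**Figure D4:**
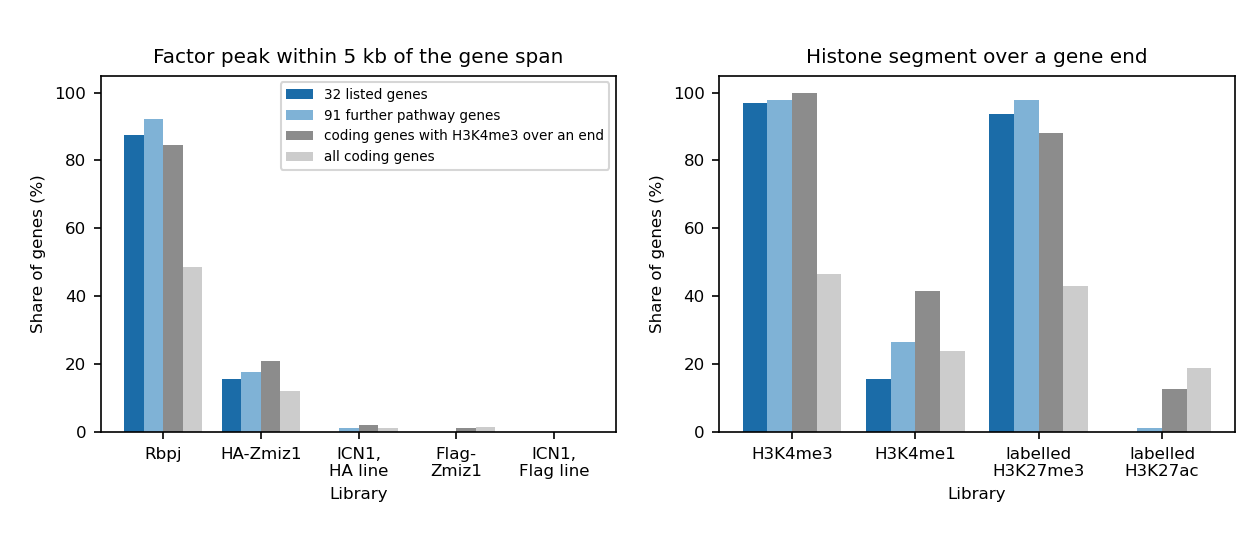
Share of genes, in percent, with a factor peak within 5 kb of the span (left) or a histone segment over an end (right), for the 32 listed genes, 91 further pathway genes, all coding genes with H3K4me3 over an end and all coding genes, per library. The listed genes are at 87.5% for Rbpj against 84.5% in genes with H3K4me3, and at 15.6% for HA-Zmiz1 against 20.8%.

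Wdr12, a WD-repeat protein of the PeBoW complex of large-subunit maturation, had the strongest HA-Zmiz1 peak of the set (chr1:60075065-60075256), with 26 tags (16.98 to 38.1), a fold of 13.4 and rank 151 of 4984. It lay inside the gene span, 22792 bp from the nearest listed start, in H3K4me3 and H3K4me1 segments, and met an Rbpj peak with a fold of 6.90 whose summit was 118 bp away. The site is thus far from the promoter, which had Rbpj (fold 5.58) and no HA-Zmiz1 peak. Another HA-Zmiz1 peak, 369 bp beyond the far end of the gene, had a fold of 5.73 and 8 tags (3.45 to 15.8) and overlapped Rbpj (fold 6.12).

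Polr1b, the other large catalytic subunit of RNA polymerase I, carried HA-Zmiz1 at its promoter (chr2:129100867-129100964), with 10 tags (4.80 to 18.4) and a fold of 5.76, 77 bp upstream of the start. The Rbpj summit there (fold 5.06) was 16 bp away. A stronger HA-Zmiz1 peak (fold 8.91, 13 tags) lay 2333 bp beyond the other end of the gene and inside Chchd5, over Rbpj with a fold of 6.79. Both sites had low tag numbers, and their counting intervals overlap (6.92 to 22.2 at the stronger one).

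Nolc1, a chaperone of small nucleolar ribonucleoproteins, had HA-Zmiz1 27 bp downstream of its start (chr19:46075834-46075916) with 9 tags (4.12 to 17.1) and a fold of 5.14, rank 4276 of 4984. Its Rbpj peak had a fold of 8.52. A pair of further HA-Zmiz1 peaks 35.4 and 36.2 kb away lay inside Ldb1 (folds 6.54 and 5.60), so the gene had 3 such peaks within 50 kb.

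Gnl3, the gene of the GTPase nucleostemin, had HA-Zmiz1 352 bp upstream of its start (chr14:31019457-31019679, fold 7.48, 13 tags). That peak lay inside Pbrm1, whose start is 7 bp from that of Gnl3 on the opposite strand, so the site cannot be assigned to either gene. At Ubtf the HA-Zmiz1 peak (chr11:102309009-102309080, fold 6.37, 10 tags) lay inside the span, 7638 bp downstream of the nearest listed start, over the Rbpj peak with the lowest fold of the 58 (3.33). A further peak 7261 bp outside Ubtf had a fold of 7.26. Exon and intron annotation was not used here.

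Of the 4 genes with HA-Zmiz1 only beyond 5 kb, Rrp12 had a peak of fold 5.45 at 10.8 kb, nearest to Frat2, which did not overlap Rbpj. Wdr43 had one of fold 5.92 at 17.3 kb, and Bop1 one of fold 5.91 at 34.6 kb inside Dgat1. Nat10 had peaks at 34.1 kb inside Caprin1 (fold 5.60) and at 38.6 kb inside Abtb2 (fold 7.73). Only 1 of these 4, Wdr43, had no other coding gene within 5 kb of the peak, so most of these peaks sat on or near neighbouring genes.

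ICN1 was not listed at these genes. In the HA line 0 of 32 had an ICN1 peak within 5 kb, against 2.07% of genes with H3K4me3 and 1.21% of all coding genes, and 1 of 32 had one within 50 kb, against 5.3% and 3.42%. At the share of genes with H3K4me3, fewer than 1 gene in 32 would have such a peak within 5 kb. Overlapping ICN1 and Rbpj peaks within 5 kb were found at 0 of 32 genes and at 1.18% of all coding genes. Overlapping ICN1 and HA-Zmiz1 peaks were found at 0 of 32 and 0.804%.

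The single ICN1 peak was that near Nat10 (chr2:103682439-103682589, fold 5.99, 11 tags), 38.7 kb from its span and inside Abtb2. At this site the ICN1 summit was 3 bp from an Rbpj summit (fold 17.7) and the HA-Zmiz1 peak of fold 7.73 overlapped it. It lay in H3K4me3 and H3K4me1 segments and in a segment of the library labelled H3K27me3. In the Flag line 0 of 32 genes had an ICN1 peak within 5 kb (0.0822% of all coding genes) or within 50 kb (0.215%). Of the 82 peaks of that list, 53 were high-input peaks, and its median fold was 3.52. In the HA-line ICN1 list 32 of 414 were high-input peaks. The counts of 0 rest on these short lists, and a gene without a listed peak is not shown to lack ICN1.

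Flag-Zmiz1 lay within 5 kb of 0 of 32 genes (1.36% of all coding genes) and within 50 kb of 2 of 32 (4.06%). Near Rrn3 the Flag-Zmiz1 peak was 14.6 kb from the span (chr16:13765924-13766145, fold 8.12, 14 tags) and did not overlap Rbpj. Near Bop1 it was 44.9 kb away and 54 bp from Scrt1 (chr15:76522183-76522351, fold 30.8, 56 tags, interval 42.3 to 72.7), rank 2 of the 581 Flag-Zmiz1 peaks. That peak overlapped Rbpj (fold 10.5) and lay in a segment of the library labelled H3K27ac as well as in H3K4me3. No HA-Zmiz1 peak overlapped either site. The Zmiz1 libraries of the lines differ in tag, Notch1 construct and library together, and these cannot be told apart.

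H3K4me3 lay over nearly all of these genes, and H3K4me1 over few of their ends. H3K4me3 covered an end of 31 of 32 genes (96.9%), against 46.6% of all coding genes. The exception was Ubtf, whose span begins upstream of its listed starts: a 6.4 kb H3K4me3 segment covered those starts, with 2091 reads against 170 in the control and a fold of 18.9. Counting starts in place of ends, every one of the 28 genes with a listed start had H3K4me3. The median fold over the control was 16.7 for the 31 genes (range 12.3 to 28.4), against 14.7 for the 10192 genes with such a segment (quartiles 11.6 and 17.6).

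The highest H3K4me3 fold was at Dkc1, on chromosome X, with 964 reads against 52 in the control and a fold of 28.4. Polr1c followed with 23.2 (1163 reads against 77) and Mybbp1a with 22.0 (1177 against 82). Dkc1 thus ranked first with fewer precipitation reads and a lower control count than these genes. The lowest was at Ltv1, with 609 reads against 76 and a fold of 12.3. No gene of the set fell below the lower quartile of genes with H3K4me3.

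Segment width varied more than fold. The median width was 3.8 kb in the 31 genes, against 3.2 kb in genes with H3K4me3. The widest lay over Nop10 (8.4 kb), Npm1 (7 kb), and Ncl and Wdr12 (5.8 kb each), and the narrowest over Ltv1 (2.4 kb), Mybbp1a and Heatr1 (2.6 kb each). The Nop10 segment reached beyond the gene, which spans less than 1 kb.

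The library labelled H3K27me3 covered an end of 30 of 32 genes (93.8%), against 88.1% of genes with H3K4me3 and 43.1% of all coding genes, and the exceptions were Npm1 and Ubtf. Over the listed starts of Ubtf there was a 6.2 kb segment of that library with a fold of 6.97. The median fold of the 30 genes was 4.57 (range 2.07 to 8.14), against 4.38 in genes with H3K4me3, with the highest at Dkc1 and the lowest at Heatr1. A segment of the library labelled H3K27ac lay over an end in 0 of 32 genes, against 12.7% of genes with H3K4me3 and 18.9% of all coding genes.

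H3K4me1, a mark of enhancers and of promoter flanks, covered an end of 5 of 32 genes (15.6%), namely Polr1a, Ncl, Npm1, Heatr1 and Nat10, against 41.5% of genes with H3K4me3 and 23.8% of all coding genes. Their folds ran from 1.6 to 2.24 (median 1.84), against a median of 2.36 in genes with H3K4me3. This count depended on where the segment was sought: within 1 kb of an end it was 27 of 32 (84.4%), against 91% of genes with H3K4me3 and 49.6% of all coding genes. Among the upper 50% of segments by fold it was 0 of 32, against 19.9% and 11.8%.

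Features of these genes that the choice of genes did not use were counted from the RefSeq tables. A small nucleolar RNA entry lay inside the span of 7 of 32 genes (21.9%), against 2.39% of genes with H3K4me3 and 1.70% of all coding genes. In the list of 91 further pathway genes described at the end it was 3 (3.3%), close to those shares. The hosts were Nop56 with 5 entries, Nop58 with 4, Gnl3 and Wdr43 with 3 each, Ncl with 2, and Dkc1 and Tsr1 with 1 each. Such RNAs guide the modification of ribosomal RNA and are cut from introns of their host genes, so host and small nucleolar RNA share the span.

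A coding start on the opposite strand lay within 1 kb upstream in 7 of 28 genes with a listed start (25%), against 37.2% of the further pathway genes, 16.4% of genes with H3K4me3 and 8.48% of all coding genes. The pairs were Polr1a with Ptcd3, Polr1c with Yipf3, Polr1d with Lnx2, Gnl3 with Pbrm1, Rrp9 with Parp3, Wdr12 with Carf and Nop16 with Higd2a. At these 7 starts a peak or segment cannot be assigned to either gene.

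The promoter windows of the 28 genes, 35 windows in all because Ubtf has 6 and Wdr12 has 3 that overlap in part, were searched for 3 runs of letters on both strands. TGGGAA was found in 11 of 35 windows (31.4%), against 22.6% of windows of genes with H3K4me3 and 24.5% of all 21263 coding windows. Its longer form GTGGGAA, which contains it, was found in 3 of 35 (8.57%; Polr1c, Rrp9 and Tsr1), against 5.84% and 6.07%. CACGTG was found in 8 of 35 (22.9%), against 10.3% and 7.84%, in Rrn3, Mybbp1a, Wdr43, Utp20, Tsr1, Ltv1, Pes1 and Nop2. Utp20, Ltv1 and Nop2 of these had no Rbpj peak within 5 kb.

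An Rbpj summit lay inside 18 of the 35 windows. TGGGAA was in 8 of these 18 (44.4%) and in 3 of the other 17 (17.6%). Over all coding windows the shares were 23.0% of 5673 with an Rbpj summit and 25.1% of 15590 without. These counts describe letters and are small for the listed genes.

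A wider list of 91 further genes of the pathway, such as processome, helicase and RNA polymerase I cofactor genes, was counted in the same way. Rbpj lay within 5 kb of 84 of 91 (92.3%, against 84.5% of genes with H3K4me3 and 48.7% of all coding genes). The median strongest fold was 7.51, against 7.82 in genes with H3K4me3. HA-Zmiz1 lay within 5 kb of 16 (17.6%, against 20.8% and 12.1%) and HA-line ICN1 of 1 (1.1%, against 2.07% and 1.21%). Flag-Zmiz1 lay within 5 kb of 0 (against 1.29% and 1.36%), as did Flag-line ICN1 (against 0.147% and 0.0822%). Within 50 kb the count for Rbpj was 89 (97.8%, against 95.1% of genes with H3K4me3 and 67.2% of all coding genes) and that for HA-Zmiz1 was 37 (40.7%, against 41.8% and 27.8%). It was 3 for HA-line ICN1 (3.3%, against 5.3% and 3.42%), 5 for Flag-Zmiz1 (5.49%, against 4.43% and 4.06%) and 0 for Flag-line ICN1 (against 0.294% and 0.215%). H3K4me3 covered an end of 89 (97.8%, against 46.6% of all coding genes), with a median fold of 17.6, against 14.7 in genes with H3K4me3. H3K4me1 covered an end of 24 (26.4%, against 41.5% of genes with H3K4me3 and 23.8% of all coding genes). The library labelled H3K27me3 did so for 89 (97.8%, against 88.1% and 43.1%) and that labelled H3K27ac for 1 (1.1%, against 12.7% and 18.9%).

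The 1 further gene with ICN1 was Utp3, a small-subunit processome gene. Its ICN1 peak in the HA line (chr5:88554159-88554262, fold 7.98) lay 251 bp upstream of its start, with HA-Zmiz1 (fold 4.56) and an Rbpj peak of fold 31.0. The strongest HA-Zmiz1 peaks of the wider list, in −log10 p, were at Rpf2 (fold 9.67), Dcaf13 (8.396), Utp15 (9.03), Nol12 (8.06) and Nvl (7.48). At Nvl the HA-Zmiz1 summit was 27 bp upstream of the start, whereas at Rpf2 and Utp15 the peaks lay beyond the far end of the gene and at Nol12 nearer to Lgals1.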

How the data were processed

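For the 5 factor libraries MACS 2.0.10.20120913 had called peaks over the line's own input at a p limit of 1e-05, per the file headers; reads of the HA line were pooled first. Per the labels' protocols, a protein crosslinker preceded formaldehyde for the factors but not for the histone marks. The submitters' processing notes name Bowtie 0.12.7, MACS2 2.0.10, SICER 1.1, HOMER 4.2, FastQC 0.10.0 and mm10. Each peak carries the authors' pileup signal (tags at the summit), −log10 p and fold over local input. Each SICER segment carries the authors' read counts for precipitation and control, p-value, false discovery rate (at most 0.001) and fold ratio. Here, these values only describe and rank regions within a list; the depth of the histone libraries is unknown. Fragment lengths in the headers (52 to 63 bp) lie near the tag length of 52 bp, which bears on peak width and pileup.

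Peaks within 5 kb or 50 kb of a gene span and segments over either end were counted with Python 3.11.15 and pandas 2.3.3. Where several segments lay over a gene, the one with most reads gave its values. Peaks overlapped when they shared 1 bp or more. Local input was (pileup + 1) / fold − 1, over fragment length times tags over genome size. The window search was tested on simulated peaks. All 32 genes were reported, with full values for those with HA-Zmiz1 or ICN1 within 5 kb, the 5 strongest and all absent Rbpj peaks, and extreme histone segments. The genes, lists and rules were chosen with earlier results of these data known.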

Additional observations from a re-analysis of the deposited data

How the results depend on the processing

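Of 140 alternative values, 35 differed from the count reported by a factor above 1.5 in either direction, or changed from or to 0. The rest stayed within that factor or, for a median, within its 95% interval. Among the values that stayed, the 28 listed genes with Rbpj within 5 kb became 21 with only peaks of p up to 1e-10. Keeping only peaks with p up to 1e-10, the listed genes with HA-Zmiz1 were 3 within 5 kb and 5 within 50 kb (further pathway list 6 and 16), those with overlapping HA-Zmiz1 and Rbpj were 2, those with an Rbpj summit within 1 kb of the start were 15 of 28, HA-line ICN1 within 50 kb was at 0 (further list 1), and Flag-Zmiz1 within 50 kb at 3 of the further list. With a 10 kb window in place of 50 kb, HA-Zmiz1 was near 5 listed genes (15.6%) and 18 further genes (19.8%). The shares at that window were 24% of genes with H3K4me3 and 14.4% of all coding genes. HA-line ICN1 was then near 0 listed and 1 further gene, and Flag-Zmiz1 near 0 and 0. With a 100 kb window HA-Zmiz1 was near 15 listed genes (46.9%, against 55% of genes with H3K4me3 and 39% of all coding genes), HA-line ICN1 near 2 listed and 6 further genes, Flag-Zmiz1 near 11 further genes and Flag-line ICN1 near 1 further gene. Counting only peaks nearest to the gene, within 50 kb, HA-Zmiz1 was near 4 and 15, HA-line ICN1 near 0 and 1, and Flag-Zmiz1 near 0 and 1. H3K4me1 was over 0 listed and 5 further genes in the upper 50% of segments by fold, 3 and 14 at listed starts, and 27 and 84 within 1 kb of an end. The library labelled H3K27ac lay within 1 kb of an end of 2 listed genes (Gar1 and Ubtf; 6.25%) and 6 further genes (6.59%), against 17.5% of genes with H3K4me3 and 22.7% of all coding genes, and over 0 listed starts of the further list. Shares over all coding genes were counted only for the settings where they are given here or above. The other counts therefore do not show whether these genes changed more than genes in general. The causes were not tested beyond what each setting adds or removes. Leaving out high-input peaks moved no value past these limits. No paired analysis was possible because each target had 1 library per line and no result came from a test. Shares rest on 32 genes, and the HA-Zmiz1 peaks within 5 kb of them held 8 to 26 tags each.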

Other observations

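The ribosomal RNA genes themselves, the template of RNA polymerase I, lie in tandem repeats that uniquely mapped reads cover poorly. The RefSeq table places a pseudogene entry of the small-subunit ribosomal RNA, Rn18s-rs5, on chromosome 17 from 39846354 to 39848202. All 5 factor libraries had peaks there: 4 for Rbpj, 3 for HA-Zmiz1, 3 for HA-line ICN1, 6 for Flag-Zmiz1 and 6 for Flag-line ICN1. Every one of them was a high-input peak, with local input at 41.6 to 102 times the library mean and folds of at most 3.63. The highest pileups there were 126 tags for Rbpj and 112 for HA-Zmiz1, against medians of 14 and 12 over their lists. The part of the input in these peaks was not tested.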
